A study of Mus musculus with 2 samples.

Results

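The 8 genes described here make and load MHC class II, the surface molecule that shows peptides to CD4+ T cells: H2-Aa, H2-Ab1, H2-Eb1, H2-DMa, H2-DMb1, H2-DMb2, Cd74 and Ciita. They were taken by symbol from the 32285 features of both single-cell count matrices, and each symbol matched 1 feature. J558 plasmacytoma cells, a mouse B-lineage tumour line, had been grown under the skin of female BALB/c mice. Mice received either 0.5% methylcellulose, the vehicle, or TAK-931, an inhibitor of the replication kinase CDC7, at 60 mg/kg by mouth each day for 6 days. The libraries came from 1 tumour of each group, so no value here has a replicate check, and every interval is a 95% interval that covers counting error only. A difference between the libraries is a difference between 2 tumours and cannot be told apart from a treatment effect or from any difference between the mice or preparations.

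Class II molecules are pairs of an alpha and a beta chain that bind peptides from proteins taken up by the cell. The invariant chain, Cd74, holds the groove closed until the cell's endosomes, where H2-DM exchanges its last fragment for a peptide. Transcription of the whole set depends on the coactivator Ciita, which dendritic cells and B cells make constitutively and which interferon gamma induces in macrophages and endothelial cells, while plasma cells are known to shut it off.

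After limits of over 2000 genes and under 15% of UMIs (unique molecular identifiers, which count transcripts) from mitochondria, 3441 vehicle and 3488 TAK-931 cells remained, with medians of 40504 and 15097 UMIs. The libraries shared 8 barcodes among all that were deposited. Cells were assigned to classes by marker genes, none of them among the 8 genes, since no annotation of the cells was used here. The dendritic gate took 17 vehicle and 63 TAK-931 cells, the macrophage gate 130 and 1164, the monocyte gate 22 and 368, the endothelial gate 79 and 174, and the tumour gate 3006 and 100. Genes of the complement component C1q led the macrophage class in both libraries, Cdh5 and Plvap were among the leading endothelial genes in both, and Jchain and Trap1a among the leading tumour genes. The vehicle monocyte and dendritic classes were less secure, since each had 1 listed marker among its 10 leading genes, Plac8 and Ccr7, and H2-Aa, H2-Ab1 and H2-Eb1 were among them too.

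In the genome 6 of the genes stand close together on chromosome 17, within the class II region. H2-Ab1 (ENSMUSG00000073421) lies at chr17:34257689-34269419 and H2-Eb1 (ENSMUSG00000060586) at chr17:34305867-34316674 on the plus strand of mm10. H2-Aa (ENSMUSG00000036594) lies on the minus strand at chr17:34282744-34287823. H2-DMa (ENSMUSG00000037649), H2-DMb2 (ENSMUSG00000037548) and H2-DMb1 (ENSMUSG00000079547) follow one another on the plus strand between 34119541 and 34160230. Cd74 (ENSMUSG00000024610) lies on another chromosome, and Ciita (ENSMUSG00000022504) at chr16:10480059-10528418. UMIs were counted per gene, so no value belongs to a single exon.

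Promoters of class II genes share an X box and a Y box upstream of the start site, which RFX, CREB and NF-Y bind and on which Ciita assembles. RefSeq promoter windows (GRCm38.p6, 250 bases before to 50 after the start) were used for 5 of the 8 genes, and in 4 of them an X box string and a Y box string lay on the sense strand with 16 or 17 bases between them. The sequences are shown because these genes share the coactivator whose level is reported with theirs. Capitals mark AACNGATGATGC or TGACGTCA in the X box region and TGATTGG, which holds the CCAAT box in reverse, and the lines run 5′ to 3′ on the gene's own strand.
H2-Eb1, chr17:34305766-34305824, plus strand: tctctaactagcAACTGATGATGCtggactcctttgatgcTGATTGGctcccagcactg
H2-Aa, chr17:34287855-34287909, minus strand: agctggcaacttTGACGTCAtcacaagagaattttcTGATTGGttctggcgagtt
H2-DMb1, chr17:34153087-34153146, plus strand: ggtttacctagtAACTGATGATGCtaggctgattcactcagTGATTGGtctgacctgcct
H2-DMb2, chr17:34145116-34145175, plus strand: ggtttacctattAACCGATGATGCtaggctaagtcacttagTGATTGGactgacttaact
The strings were chosen after these promoters were read, the first as the letters that H2-Eb1, H2-DMb1 and H2-DMb2 share, and were searched on both strands, where they did not overlap. AACNGATGATGC stood in 5 of 32851 promoter windows of the same length (0.0152%), 3 of them the ones above. TGACGTCA stood in 1.79% of the windows, TGATTGG in 7.82%, and either X box string together with TGATTGG in 0.161%. Neither of the 2 start sites listed for H2-DMa held any of the strings. The windows of H2-DMb1 and H2-DMb2, which are neighbouring copies of a gene, were identical at 51 of 60 bases.

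In the TAK-931 library the summed level of the class II genes was higher in macrophages and endothelial cells, nearly level in dendritic cells and lower in monocytes. Not every gene followed its sum: H2-DMb2 did not in macrophages, Ciita did not in monocytes and the H2-DM genes did not in dendritic cells. Levels are UMIs per 1000000 UMIs of the class (CPM), and ratios are TAK-931 over vehicle. The summed level of the 8 genes went from 14969 CPM (14797 to 15142) to 36349 CPM (36270 to 36428) in macrophages, a 2.43-fold difference. Endothelial cells showed the widest gap, with 21.8 CPM (14.9 to 30.8) in the vehicle library and 3400 CPM (3335 to 3466) in the TAK-931 library. Dendritic cells had 40384 and 42057 CPM, a log2 ratio of 0.06 (0.03 to 0.09), and were the highest of the 5 classes in both libraries. In monocytes the sum was 27741 CPM in the vehicle library and 20638 CPM in the TAK-931 library, a log2 ratio of -0.43 (-0.47 to -0.39). The 12 dendritic cell markers summed to 466 CPM in vehicle monocytes (5 detected, Zbtb46 and Clec9a at 0) and to 300 CPM in those of the TAK-931 library (12 detected), and to 137 and 112 CPM in macrophages. In monocytes the 10 monocyte markers summed to 3755 and 6573 CPM and the 8 myeloid markers to 10009 and 15331 CPM, so the gate held unlike cells in the libraries. The part of these marker differences in the class II levels was not tested.

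**Figure D1:**
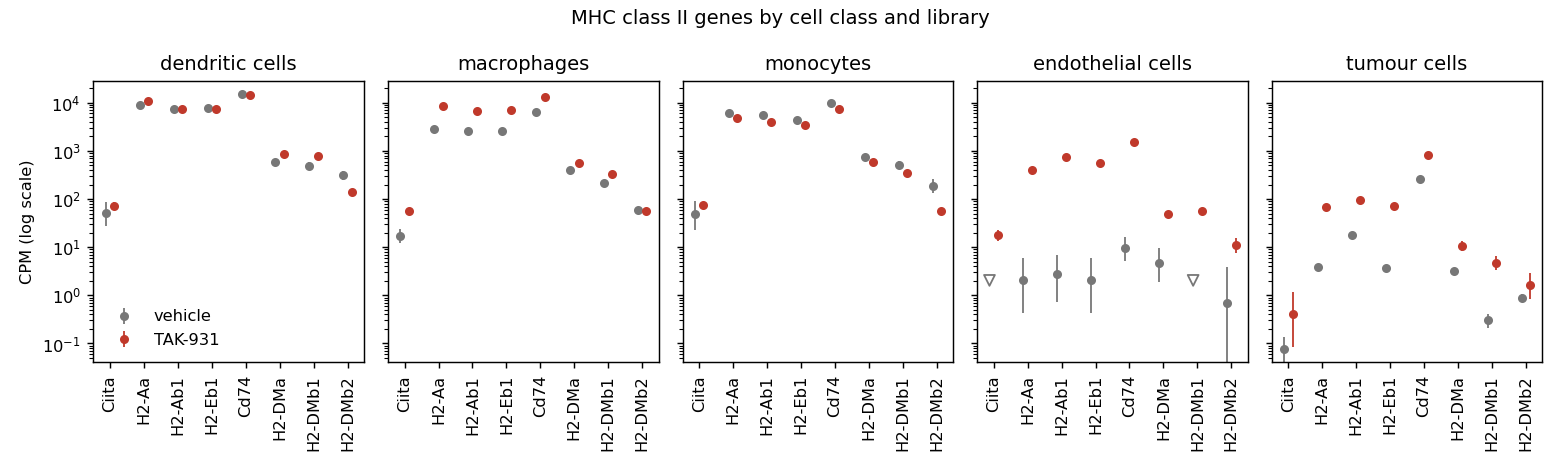
CPM on a log axis of each of the 8 genes in 5 marker-gated cell classes, in the vehicle (grey) and TAK-931 (red) library, where bars are exact Poisson intervals and open triangles mark the limit of 3 counts for genes with 0 UMIs. Summed over the genes dendritic cells were nearly level, and endothelial cells had at most 9.53 CPM of any gene in the vehicle library.

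Read against all genes, the share of class II genes past 2-fold was well above the background in macrophages. There 5 of the 8 genes were over 2-fold higher and none over 2-fold lower, while of 10076 genes with at least 50 UMIs in both libraries together 6.9% were higher and 8.93% lower by that much. Ciita, 1 of these 5, had 34 vehicle UMIs and reached 50 UMIs only through the TAK-931 library. In endothelial cells 7 genes reached 50 UMIs, each through the TAK-931 library alone, so that all 7 were over 2-fold higher (4.9% of 7491 genes were higher and 8.48% lower) was largely fixed by this limit, and H2-DMb2 did not reach it. Tumour cells had 6 of 7 genes over 2-fold higher, against 6.05% higher and 4.65% lower of 12105 genes, with free RNA not subtracted. Of these 6, H2-Aa, H2-Eb1 and H2-DMb1 lay close to the level that free RNA would give in the TAK-931 library. Free RNA predicted 68.2 of the 95.4 CPM of H2-Ab1 there and 6.66 of the 10.5 CPM of H2-DMa. Cd74 stood well above its prediction, at 822 against 136 CPM. In dendritic cells 0 of 8 were over 2-fold higher and 1 lower, against 7.79% and 2.91% of 3339 genes, and in monocytes 0 of 8 higher and 1 lower, against 12.4% and 7.74% of 6585 genes. The median log2 ratio of the genes was 1.21 in macrophages, where that of all genes was -0.12, and 0.16 in dendritic cells against 0.03. It was -0.42 in monocytes against -0.01 and 2.43 in tumour cells against 0.00, with free RNA not subtracted.

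Ciita, the coactivator of the set, was 3.31-fold higher in macrophages, at 17.5 CPM (12.1 to 24.4) under vehicle and 57.8 CPM (54.7 to 61.1) under TAK-931, a log2 ratio of 1.73 (1.23 to 2.26). In endothelial cells it had 0 UMIs in the vehicle library and 54 in the TAK-931 library (17.7 CPM), which is at least 8.65-fold higher over a limit of 3 counts in the whole class. Its intervals took in 0 in dendritic cells, with a log2 ratio of 0.48 (-0.36 to 1.45), and in monocytes, with 0.66 (-0.23 to 1.74). Vehicle dendritic cells held 13 UMIs of Ciita and vehicle monocytes 10, so a difference of this size was not detectable at this depth. In tumour cells Ciita was close to absent, with 10 UMIs over 3006 cells (0.0750 CPM) and 3 UMIs over 100 cells (0.41 CPM), a ratio of 5.47 (0.97 to 21.2).

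The antigen-binding chains were higher in endothelial cells and macrophages of the TAK-931 library. H2-Aa, the alpha chain of I-A, went from 2828 to 8406 CPM in macrophages (2.97-fold, 2.89 to 3.05) and from 2.04 to 391.9 CPM in endothelial cells, where the vehicle value rests on 3 UMIs and the ratio of 192 has an interval of 65.5 to 932. H2-Ab1, its beta chain, went from 2594 to 6629 CPM in macrophages (2.56-fold) and from 2.72 to 764 CPM in endothelial cells. H2-Eb1, the beta chain of I-E, went from 2561 to 7143 CPM in macrophages (2.79-fold) and from 2.04 to 570 CPM in endothelial cells. In all 3 chains the macrophage and endothelial intervals of the libraries were apart. In vehicle endothelial cells free RNA alone predicted 3.07 CPM of H2-Aa, 3.06 of H2-Ab1 and 2.52 of H2-Eb1. None of the 3 vehicle values stood above that, so the endothelial ratios have no measured vehicle level beneath them. The chains barely moved in dendritic cells, where H2-Aa had a log2 ratio of 0.30 (0.23 to 0.36), H2-Ab1 of 0.02 (-0.05 to 0.10) and H2-Eb1 of -0.09 (-0.17 to -0.02), whose sign turned without the 5% of cells with most class II UMIs. Monocytes of the TAK-931 library had less of each, with log2 ratios of -0.33 for H2-Aa, -0.50 for H2-Ab1 and -0.35 for H2-Eb1, and every upper bound stood below 0.

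Cd74, the invariant chain, was 2.09-fold higher in macrophages (6290 and 13176 CPM), less than each of the 3 antigen-binding chains, whose intervals lay above that of Cd74. In endothelial cells it had 14 UMIs (9.53 CPM) under vehicle and 4713 UMIs (1542 CPM) under TAK-931. Dendritic cells did not differ beyond counting error, at 14860 and 14452 CPM. Monocytes had 10120 and 7294 CPM. Most class II UMIs of tumour cells were of Cd74: in the vehicle library it made 35149 of their 39100 UMIs of the 8 genes, at 264 CPM (261 to 267), and in the TAK-931 library it stood at 822 CPM (802 to 843), 3.12-fold higher.

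The genes of the peptide exchange factor H2-DM differed less than the antigen-binding chains in macrophages and more in dendritic cells, where its beta chain genes went in opposite directions. H2-DMa, the alpha chain, was 1.38-fold higher in macrophages (400 and 553 CPM) and 1.46-fold higher in dendritic cells (579 and 848 CPM). H2-DMb1 was 1.49-fold higher in macrophages (221 and 328 CPM) and 1.57-fold higher in dendritic cells (496 and 777 CPM). H2-DMb2 was lower in dendritic cells, from 309 CPM (245 to 386) to 138 CPM (118 to 160), a log2 ratio of -1.17 (-1.56 to -0.76). In monocytes all 3 H2-DM genes were lower, H2-DMa with a log2 ratio of -0.37, H2-DMb1 of -0.57 and H2-DMb2 of -1.74, from 189 CPM (135 to 259) to 56.5 CPM (49.8 to 63.8). In macrophages H2-DMb2 stood at 58.1 and 55.6 CPM, a log2 ratio of -0.06 (-0.34 to 0.23) whose sign turned to 0.12 with ratios centred on the median of the genes with at least 50 UMIs in each library.

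The share of H2-DMb2 among the UMIs of both beta chain genes put these differences on a scale that does not depend on depth. It was 38.4% (31.7 to 45.5) in vehicle dendritic cells and 15.1% (13.1 to 17.3) in those of the TAK-931 library, 26.7% (19.7 to 34.7) and 13.9% (12.4 to 15.5) in monocytes, and 20.8% (17.5 to 24.5) and 14.5% (13.8 to 15.3) in macrophages. The intervals of the libraries did not overlap in any of these 3 classes. The type 1 dendritic cells, 8 and 27 cells, had 343 and 138 CPM of H2-DMb2, and the type 2 cells, 5 and 26, had 355 and 175 CPM, so the gap was seen in both subsets. In dendritic cells the 8 B cell markers summed to 7.93 and 2.38 CPM (2 detected in each library, Pax5 at 0) and the 10 tumour markers to 1123 and 221 CPM. The 8 myeloid markers summed to 2178 and 3767 CPM in the same cells, the 9 macrophage markers to 163 CPM (C1qb and C1qc at 0) and 306 CPM, and the 10 monocyte markers to 678 and 2069 CPM (Chil3 and Vcan at 0 in both). The part of these cells in the H2-DM levels was not tested. The share was 85.7% (73.8 to 93.6) in the 11 B cells of the TAK-931 library. Tumour cells, of the B lineage too, had 74.5% (67.0 to 81.1) in the vehicle library, at an H2-DMb2 level of 0.88 CPM, and 25.5% (13.9 to 40.3) in the TAK-931 library, on 12 UMIs. In the latter free RNA predicted 4.09 of the 4.79 CPM of H2-DMb1 and 0.74 of the 1.64 CPM of H2-DMb2, and its part in the share was not tested. None of the 50-base words in the last 500 bases of the annotated H2-DMb2 transcripts occurred in a transcript of H2-DMb1, while 27.4% of those of H2-DMb1 occurred in H2-DMb2, so some reads of H2-DMb1 could come from either gene. These mice carry the BALB/c haplotype and the reference that of C57BL/6, and its part in the levels of these polymorphic genes was not tested.

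**Figure D2:**
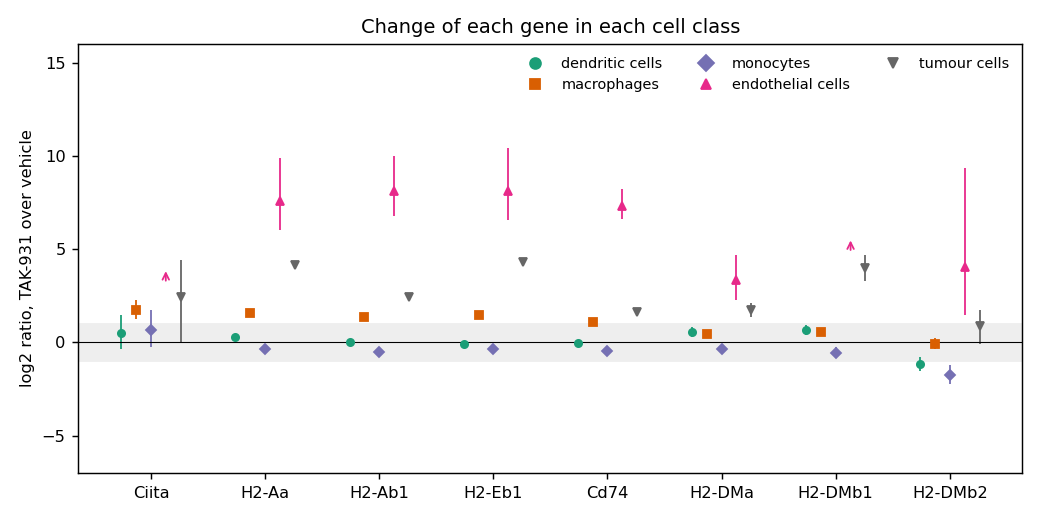
Log2 ratio of CPM, TAK-931 over vehicle, of each gene in 5 cell classes with exact conditional intervals, where the grey band marks 2-fold and arrows start at the lower bound of the genes with 0 UMIs in vehicle endothelial cells. H2-DMb2 lies below 0 in dendritic cells (-1.17) and monocytes (-1.74).

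Single cells within a class differed more than the class sums do between the libraries in dendritic cells and monocytes. The 17 vehicle dendritic cells ranged from 21613 to 71975 CPM of the summed genes with a median of 41703, and the 63 of the TAK-931 library from 1455 to 95898 with a median of 44218. The lowest cells were thus in the TAK-931 library, and its 10 mature dendritic cells, marked by Ccr7 and Fscn1, had 21632 CPM against 47994 CPM in 4 vehicle cells. The other subsets went the other way, type 1 cells from 34695 to 42699 CPM and type 2 cells from 44592 to 48939 CPM, so the nearly level sum of the class combined opposite differences. Vehicle macrophages spanned 0 to 58935 CPM with a median of 13846, and 5% of them were under 254 CPM. TAK-931 macrophages spanned 1216 to 79054 CPM with a median of 39047, and 5% were under 11299 CPM. The low macrophages of the vehicle library had thus few counterparts in the TAK-931 library, while the upper ends overlapped. Vehicle monocytes had a median of 27085 CPM and those of the TAK-931 library a median of 13518 CPM, with ranges of 141 to 62624 and 89.1 to 77666 CPM that overlapped almost fully.

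**Figure D3:**
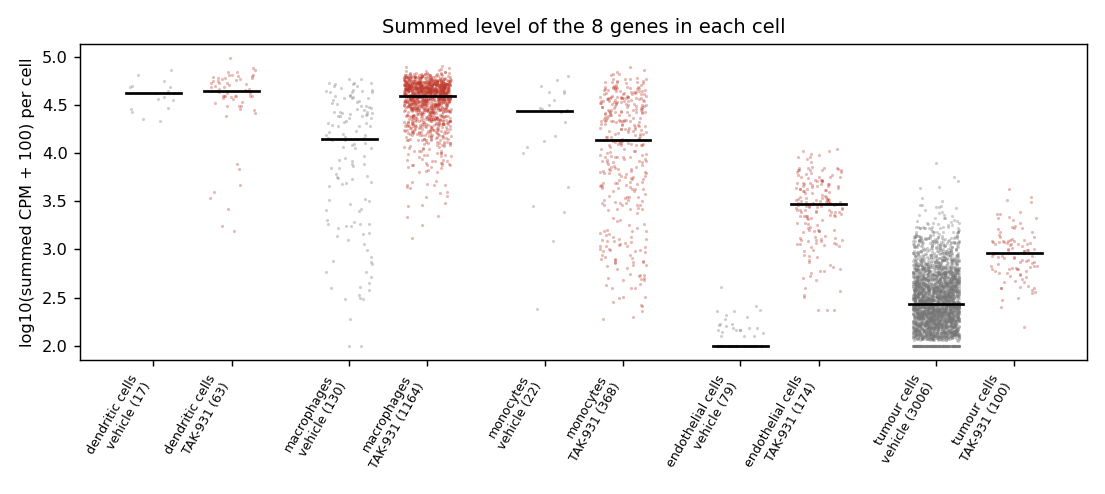
Summed CPM of the 8 genes in each cell, plotted as log10 of the value plus 100, with 1 point per cell, black lines at medians and cell numbers in brackets. Vehicle macrophages reach down to 0 CPM, whereas the endothelial cells of the TAK-931 library lie above 133 CPM and those of the vehicle library at or below 311 CPM.

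Cells were also compared at equal depth, after each had been thinned to 4000 UMIs, which left out no cell of the 5 classes. H2-Aa was then seen in 83.1% (75.5 to 89.1) of vehicle and 99.7% (99.1 to 99.9) of TAK-931 macrophages, and without thinning in 87.7% and 99.9%. Ciita was seen in 9.23% (4.86 to 15.6) and 18.7% (16.5 to 21.1) of macrophages, and without thinning in 18.5% and 52.9%. The thinned share of dendritic cells with H2-DMb2 was 76.5% (50.1 to 93.2) under vehicle and 34.9% (23.3 to 48.0) under TAK-931. The intervals overlapped without thinning, at 94.1% (71.3 to 99.9) and 82.5% (70.9 to 90.9), and with cells thinned to 2000 UMIs, at 52.9% (27.8 to 77.0) and 25.4% (15.3 to 37.9). In monocytes the shares with Cd74 were 90.9% (70.8 to 98.9) and 91.3% (87.9 to 94.0), and without thinning 95.5% and 96.2%, nearly level, although the Cd74 level was lower in the TAK-931 library.

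Within the myeloid cells the relation between class II and macrophage identity ran in opposite directions in the libraries. All macrophages, monocytes and intermediate myeloid cells were placed in 5 bins by their mean score over 9 macrophage markers (log2 of 1 plus counts per 10000). In the vehicle library the summed level went from 31429 CPM in the lowest bin to 25655, 28582, 16664 and 8101 CPM in the highest. In the TAK-931 library it went from 22171 CPM in the lowest bin through 25962, 30232 and 37122 CPM to 41971 CPM in the highest. The log2 ratio was -0.50 (-0.54 to -0.47) in cells with a score under 1, 0.02 (-0.01 to 0.04) from 1 to 2, 0.08 (0.05 to 0.12) from 2 to 3, 1.16 (1.13 to 1.18) from 3 to 4, and 2.37 (2.34 to 2.41) at 4 and over. The difference between the libraries was therefore widest in the cells with most macrophage markers, of which there were 43 and 236. The lowest bin held 26 and 406 cells and the middle bin 23 and 352.

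The antigen-binding chains and Cd74 had the same pattern as the sum. In the highest bin H2-Ab1 stood at 1328 and 7375 CPM, H2-Eb1 at 1192 and 8356 CPM and Cd74 at 3615 and 15692 CPM. The H2-DM genes and Ciita did not: in the TAK-931 library too they were lower in the highest bin than in the lowest, with H2-DMb2 at 70.3 CPM in the lowest and 50.6 CPM in the highest. The Ciita value was above that of the vehicle library in all 5 bins, with 44.7 and 84.1 CPM in the lowest and 13.8 and 43.0 CPM in the highest. It was closest from 1 to 2, at 39.5 and 55.1 CPM. Vehicle macrophages held 34 UMIs of Ciita, intermediate myeloid cells 23 and monocytes 10, so each vehicle bin rests on few UMIs. No interval was made for single bins, and whether their differences exceed counting error was not tested. Macrophages of the vehicle library had 33820 CPM and those of the TAK-931 library 32188 CPM of the summed macrophage markers, while their summed monocyte markers were 438 and 1166 CPM.

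**Figure D4:**
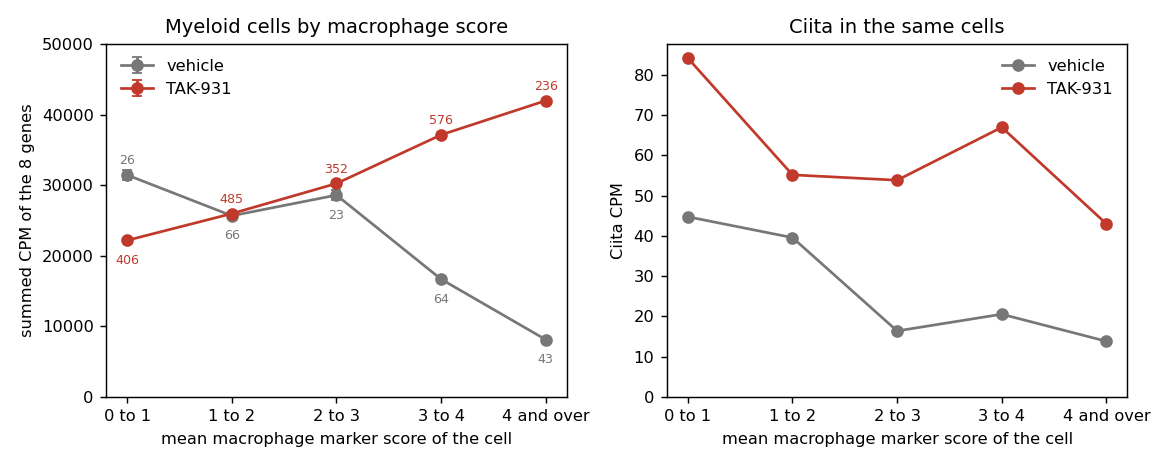
Myeloid cells in 5 bins of macrophage marker score, with cell numbers beside the points: left, summed CPM of the 8 genes, which goes from 31429 to 8101 CPM in the vehicle library (grey) and from 22171 to 41971 CPM in the TAK-931 library (red). Right, CPM of Ciita without intervals, with the higher value in the TAK-931 library in every bin, on few vehicle UMIs.

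The summed class II level of vehicle endothelial cells was close to that estimated for free RNA, the transcripts from broken cells that enter every droplet. The level expected from markers of other lineages was 21.7 CPM against 21.8 CPM observed, and H2-DMa alone, on 7 UMIs, stood at 4.77 CPM against 0.43 CPM expected. In the TAK-931 library the expected level was 434 CPM against 3400 CPM observed, so free RNA at this estimate amounted to 12.8% of the signal. The endothelial cells of that library had 265 CPM of the 8 summed myeloid markers (38.8 CPM, with Fcgr1 at 0, in the vehicle library), which was 3.25% of the level in all barcodes, whereas their summed class II genes were at 19.4% and their Ciita at 51.7% of that level. The part of myeloid RNA in the endothelial level was not tested. In the 39 and 87 endothelial cells with the lower myeloid scores, a choice made after seeing the data, the log2 ratio was 7.18, and in all cells 7.29 (6.79 to 7.83).

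At equal depth Cd74 was seen in 3.8% (0.79 to 10.7) of vehicle and 92.5% (87.6 to 96.0) of TAK-931 endothelial cells. In T cells of the TAK-931 library, which at 14109 UMIs had a median depth near the 12959 of the endothelial cells and are not known to make class II in the mouse, the share was 29.9% (26.4 to 33.6). Without thinning Cd74 was seen in 11.4% and 97.1% of endothelial cells and in 66.8% of these T cells. H2-DMb1 had 0 UMIs in vehicle endothelial cells and 169 in the TAK-931 library, at least 27.1-fold higher over 3 counts in the class, and H2-DMa had 4.77 and 48.1 CPM. H2-DMb2 stood on 1 and 34 UMIs, a ratio of 16.3 (2.74 to 664).

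In TAK-931 tumour cells the antigen-binding chains stood near the level of free RNA and Cd74 well above it. H2-Aa was observed at 69.9 CPM where free RNA predicted 85.5 CPM, H2-Eb1 at 70.8 where 70.6 was predicted, and H2-Ab1 at 95.4 where 68.2 was predicted. Cd74 was observed at 822 CPM against a prediction of 136 CPM. The vehicle tumour cells had 264 CPM of Cd74 against 11.9 CPM predicted and 17.7 CPM of H2-Ab1 against 2.95 CPM. With free RNA subtracted the log2 ratio of the tumour sum was 1.37 in place of 1.87 (1.84 to 1.91), and little or nothing of H2-Aa and H2-Eb1 remained in the TAK-931 library. Cd74 was seen at equal depth in 47.0% (45.2 to 48.8) of 3006 vehicle and 84.0% (75.3 to 90.6) of 100 TAK-931 tumour cells, and without thinning, at median depths of 42428 and 73592 UMIs, in 89.8% and 99.0%. The latter also had 177 CPM of summed myeloid markers against 18.8 CPM in the vehicle library, and the part of cells captured together with tumour cells was not tested.

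**Figure D5:**
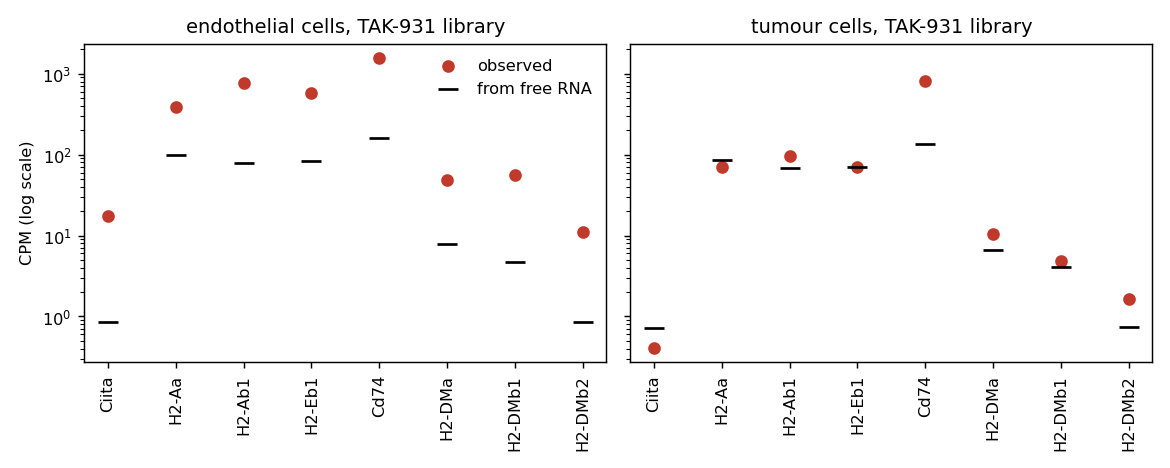
Observed CPM (points) and the CPM that free RNA would give (dashes) on a log axis for each gene in the TAK-931 library. All 8 genes lie above the dashes in endothelial cells, whereas in tumour cells H2-Aa (69.9 and 85.5 CPM) and H2-Eb1 (70.8 and 70.6 CPM) lie at them.

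The cells that held the class II RNA differed between the libraries. Macrophages held 27.1% of the UMIs of the set under vehicle and 63.1% under TAK-931, being 3.78% and 33.4% of the cells. Dendritic cells held 9.50% and 4.15%, monocytes 5.33% and 7.45%, endothelial cells 0.03% and 0.81%, and tumour cells 36.5% and 0.61%. When the difference in the summed CPM of all kept cells was split, 75.3% went with the shares of the classes and 24.7% with levels within them.

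Of the genes around the set, some targets of interferon gamma were higher in the TAK-931 library, also in monocytes, where the summed class II level was lower. Irf1, a transcription factor that interferon gamma induces and that acts on a Ciita promoter, was higher in all 4 non-tumour classes, with log2 ratios of 1.67 (0.64 to 2.91) in dendritic cells, 1.67 (1.41 to 1.93) in macrophages, 1.94 (1.09 to 2.94) in monocytes and 2.00 (1.74 to 2.28) in endothelial cells. Socs1, an inhibitor of the pathway that it also induces, had 1.72 in macrophages, 2.43 (0.87 to 4.71, on 3 vehicle UMIs) in monocytes and 2.21 in endothelial cells, and 0.08 (-0.91 to 1.22) in dendritic cells. Other genes of the pathway were lower: Jak1 at -0.82 in dendritic cells, where 6 of 8 were higher and 2 lower. In endothelial cells, with 5 higher and 3 lower, Jak1 had -0.73, Ifngr2 -0.58 and Jak2 -0.36. In tumour cells Irf1 had 0.40 (0.12 to 0.68) and Socs1 0.01 (-0.47 to 0.45). Of the 8 listed genes of this pathway, 1 was past 2-fold higher in dendritic cells, 2 in macrophages and in monocytes, 3 in endothelial cells and 1 in tumour cells (Jak1, on 50 and 32 UMIs), with none past 2-fold lower. Irf1 in dendritic cells (8 vehicle UMIs) and monocytes (11) and Socs1 in macrophages (48) and monocytes (3) reached 50 UMIs only through the TAK-931 library. Jak1 stood at 0.38 and 4.38 CPM in tumour cells, whose summed myeloid markers were 18.8 and 177 CPM, and their part was not tested. With 8 genes, 1 is close to the background of 7.79% in dendritic and 6.05% in tumour cells, whereas that in macrophages was 6.9%, in monocytes 12.4% and in endothelial cells 4.9%.

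Of the 9 listed transcription factors of class II genes, all 9 had 50 UMIs or more in macrophages, and 0 of them were past 2-fold, which is near the background of 6.9% higher and 8.93% lower, with Rfx5 at 0.60 (-0.57 to 2.08), Rfxap at -0.22 (-0.57 to 0.15) and Nfya at 0.08 (-0.38 to 0.58). In monocytes Irf8 and Nfya were past 2-fold higher of 7 counted (background 12.4%), Nfya on 2 vehicle UMIs. Irf8 alone was in endothelial cells, of 6 counted (4.9%), and in tumour cells, of 9 (6.05%), there at 3.44 and 10.3 CPM. Summed myeloid markers were 38.8 and 265 CPM in these endothelial cells and 18.8 and 177 CPM in these tumour cells. The part of myeloid RNA in the Irf8 values was not tested. Irf8, a myeloid factor on that list, was at 0.75 (0.62 to 0.88) in macrophages, 1.43 (0.94 to 1.96) in monocytes and 1.25 (0.88 to 1.64) in endothelial cells. Prdm1, which silences Ciita in plasma cells, stood at 113 and 150 CPM in tumour cells.

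The endosomal enzymes that cut antigen and the invariant chain gave a mixed picture. Of the 7 listed, 3 were past 2-fold higher in dendritic cells (Ctsl, Ctsd and Lgmn), where the background was 7.79%, although the vehicle cells held 2, 4 and 9 UMIs of these and the myeloid markers of these cells were higher too, as given above. None was past 2-fold in macrophages, where Ctss, the cathepsin that trims the invariant chain, had a log2 ratio of 0.13. In endothelial cells Ctss was higher at 3.17 (2.09 to 4.51) and Ifi30, a lysosomal thiol reductase, at 1.99 (0.86 to 3.37), both genes that myeloid cells express, in cells whose summed myeloid markers were 38.8 and 265 CPM, whereas Ctsb was lower at -1.80 and Lgmn at -1.48. In monocytes Ctsb was past 2-fold higher, 1 of 7 counted, which is near the background of 12.4%. Ctsb and Ctsh were in tumour cells, 2 of 7 (6.05%), where the summed myeloid markers were 18.8 and 177 CPM. Of the 9 listed class I genes, which show peptides to CD8+ T cells, 8 were past 2-fold higher in endothelial cells (background 4.9%) and 4 in macrophages (6.9%). In monocytes 3 were (12.4%), in dendritic cells 0 (7.79%) and in tumour cells 0 (6.05%). Monocytes had a median log2 ratio of 0.85 over them, with all 9 higher, while 7 of the 8 class II genes were lower in the same cells. Of the 3 listed costimulation genes, 1 was past 2-fold higher in macrophages (background 6.9%) and 1 in monocytes (12.4%), Cd40 in each case. Cd40 was at 1.17 (0.73 to 1.66) in macrophages, on 42 vehicle UMIs, and at 1.21 (0.36 to 2.22) in monocytes, on 11. In dendritic cells 0 of 3 were, with Cd80 at 0.26, Cd86 at -0.35 and Cd40 at -0.17, and each interval took in 0. Cd86 stood at 0.05 in macrophages. In tumour cells Cd86 was past 2-fold higher, 1 of 2 counted (6.05%), at 2.09 on 107 and 25 UMIs. These were the cells with 18.8 and 177 CPM of myeloid markers. The part of myeloid RNA in these endothelial and tumour values was not tested.

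Across 19 points, each a class in a library with at least 10 cells, the 8 genes had profiles much alike. The Pearson correlation of each with the mean of the other 7 was between 0.92 and 0.99, lowest for Ciita and H2-DMb2, as a description over points that share libraries. Of 13884 genes the 10 with the nearest profiles to the set began with Cd86 (0.96) and Cd83 (0.95), surface proteins of antigen-presenting cells. Grk3, Ms4a4c, Ly86, Ms4a6c, Plbd1, Pkib and Nfam1 were among the others, down to 0.92.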

How the data were processed

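Libraries from 1 vehicle and 1 TAK-931 tumour were made with droplet 3′ chemistry (10x Genomics v3.1). The deposited matrices hold raw UMI counts per gene and barcode, with Cell Ranger 6.0.0 and mm10 named in the submitters' processing notes. The methods of the study name a human build for the alignment, yet all 32285 features carry mouse identifiers. There were 4565 vehicle barcodes with 144767193 UMIs in total and 6558 TAK-931 barcodes with 77369283 UMIs.

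Cells had to have over 2000 genes and less than 15% of UMIs from mitochondria, the limits of the study. Each cell was scored by its mean log2 of 1 plus counts per 10000 over marker lists and took the class whose threshold it passed with at least 3 markers. Dendritic cells needed 1 of 6 key markers and a macrophage score under 1, macrophages a score of at least 2, and monocytes a macrophage score under 1 with a monocyte score of at least 0.5. Cells passing for more than 1 lineage (32 and 219) were left out, no doublet caller was run, and 15 and 17 cells stayed unassigned. Thresholds were set on marker scores of these data, and the genes and lists were chosen with earlier results of these data known.

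Within each library the UMIs of a class were added up and divided by their total. Intervals are exact Poisson for levels, exact conditional binomial for ratios and Clopper-Pearson for shares. With 1 library per group no test was made. A gene entered the counts past 2-fold where both libraries together gave it 50 UMIs or more. Genes named beside the set come from lists of the pathway, or are the 10 whose class profile correlates best with the set. Some genes that these rules take in are not reported here. Free RNA was estimated as the median ratio of other lineages' markers in a class to their level in the library. Ratios were checked on simulated data. Alternatives are given at the end. Tables were handled in pandas 2.3.3 under python 3.11.15, intervals came from scipy 1.17.1, and plots from matplotlib 3.10.9 with numpy 2.4.6.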

Additional observations from a re-analysis of the deposited data

Results flagged for a closer look

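Macrophages and monocytes differed in opposite directions under the same comparison: the log2 ratio of the summed genes was 1.28 in macrophages and -0.43 in monocytes. With 1 library per group the difference between the classes was not tested.

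Signal was also found in cells outside the 5 classes. Plasmacytoid dendritic cells, 8 and 63 cells, had 6425 and 16992 CPM of the summed genes, a log2 ratio of 1.40 (1.28 to 1.53). Their median cells were closer, at 8688 and 9950 CPM, and 7 of the 63 TAK-931 cells held 56.1% of the class II UMIs. Fibroblasts, 39 and 71 cells, had 12.9 and 610 CPM, a log2 ratio of 5.56 (4.78 to 6.48), and the level expected from free RNA was 71.3% of that seen in the TAK-931 library. The vehicle cells of this gate had a median of 5 mural and 3 fibroblast markers and the TAK-931 cells 2 and 5, so the gate held unlike cells in the libraries. Barcodes with over 500 and at most 2000 genes, 722 and 1147 of them, which the comparisons leave out, had 4062 and 8595 CPM, a log2 ratio of 1.08 (1.05 to 1.11).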

How the results depend on the processing

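The log2 ratio of the summed genes kept its sign in the 5 classes under each alternative run, and no alternative was run for the other cells. In macrophages (1.28) it was 1.24 with cells over 1000 genes, 1.30 with mixed cells kept, 1.40 without the 5% of cells with most class II UMIs, 1.07 as the mean of each cell's CPM, 1.47 scaled by the median ratio of the genes with at least 50 UMIs in each library, 1.25 with free RNA subtracted and 1.42 without Cd74. In dendritic cells (0.06) it was 0.024 with mixed cells kept, 0.17 without the top cells, 0.14 scaled by that median ratio and 0.11 without Cd74. In monocytes (-0.43) it was -0.32 over 1000 genes, -0.30 with 1 marker more and -0.25 scaled by that median ratio. In endothelial cells (7.29) subtracting free RNA gave 12.88, a value set by the 0.5 UMIs added after the subtraction, since almost nothing remained in the vehicle library. In tumour cells (1.87) it was 1.96 with mixed cells kept, 1.97 without the top cells, 1.93 in the cells with lower myeloid scores (chosen after seeing the data), 1.76 as the mean of cells, 1.37 with free RNA subtracted and 3.1 without Cd74. The 3.1 is given without free RNA subtracted. Free RNA predicted 236 of the 254 CPM of that sum in the TAK-931 library and 9.07 of the 29.7 CPM in the vehicle library. Scaling by that median ratio moved every log2 ratio up by 0.09 in dendritic cells, 0.19 in macrophages, 0.18 in monocytes and 0.26 in endothelial cells.

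Of 315 alternative values of the single genes' ratios, 253 stayed within the interval of the main value, 59 left it and 3 changed the sign of a ratio whose interval lay apart from 0: H2-Eb1 in dendritic cells without the top cells (0.055), and in tumour cells with free RNA subtracted H2-Aa (-3.83) and H2-Eb1 (-1.83), where little or nothing remained in the TAK-931 library and the added 0.5 UMIs help set the value, which is no measured ratio or bound for H2-Aa. Ratios whose intervals took in 0 also changed sign under some alternatives for H2-Ab1 and Cd74 in dendritic cells and H2-DMb2 in macrophages. The causes of these moves were not tested. Counting genes from 10 UMIs put 924 genes higher and 640 lower past 2-fold in dendritic cells, 1495 and 1472 in macrophages, 1303 and 1516 in monocytes, 977 and 1174 in endothelial cells, and 1815 and 878 in tumour cells. With ratios scaled by that median ratio, 62 genes were lower in dendritic cells, 583 in macrophages, 326 in monocytes and 346 in endothelial cells, where 559 were higher.

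No paired analysis was possible because each group has 1 library and the labels give no replicate numbers. The 17 vehicle dendritic cells and 22 vehicle monocytes limit the precision of those ratios, and the intervals do not cover the spread between tumours. The parts of dissociation, of the choice of tumour and of alignment to another haplotype were not tested.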

Other observations

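T cells had 2288 CPM of the summed genes in the vehicle library and 556 CPM in the TAK-931 library, but 95% of the 542 UMIs in the 14 vehicle T cells came from 1 cell with 515 UMIs. The median cell had 51.5 CPM in the vehicle and 238 CPM in the TAK-931 library. The 11 B cells, all in the TAK-931 library, had 15377 CPM of the summed genes and 85.6 CPM of Ciita. The 70 and 523 intermediate myeloid cells had H2-DMb2 shares of both beta chain genes of 25.1% (20.7 to 29.9) and 15.7% (14.4 to 17.1).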
